A study of Sus scrofa with 6 samples.

Results

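The insulin-like growth factor (IGF) system of the endometrium was followed here as a set of 10 genes named by symbol, the ligands IGF1 and IGF2, the receptors IGF1R, IGF2R and INSR, and the binding proteins IGFBP2, IGFBP3, IGFBP4, IGFBP5 and IGFBP6. Of these, 8 matched a row among the 14262 genes of the deposited table. No identifier in the table of gene names carried the symbol IGF2 or IGFBP3, and both are not analysed here. Endometrium, the lining of the uterus, came from Erhualian sows (a Chinese breed of Sus scrofa) on day 12 of gestation, from 3 sows labelled high prolific and 3 labelled low prolific. High 1 to high 3 and low 1 to low 3 stand for these sows, with the numbers of the labels. High 1 and low 3 were of parity 5 (litters borne), low 1 and low 2 of parity 7, and high 2 and high 3 of parity 8. The labels name no treatment, and how prolificacy was scored is not stated in them.

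IGF1 and IGF2 are secreted growth factors that signal through the tyrosine kinase IGF1R and, for IGF2, through a form of the insulin receptor INSR. IGF2R carries no kinase and takes IGF2 to the lysosome. Most IGF outside cells is bound to IGFBPs, which limit or prolong access to the receptors until proteases cleave them. In the pig, uterine IGF acts on the endometrium and on the conceptus, which elongates at about this stage.

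All values are the authors' normalized read counts, 1 per gene and sow. Their column sums, between 22663087 and 24270245, are set by the normalization, so the sequencing depth behind them is not known and counting error could not be given. The values carry no transcript length, so each gene was compared between sows and the levels of different genes were not ordered. Of the epithelial markers listed, 8 of 10 were measured, each at a mean of 1463 or more. Of the stromal markers 9 of 10 were measured, each at a mean of 259 or more. In whole tissue, fewer cells of a type and less RNA per cell cannot be told apart. Low 2 and low 3 stood apart from the other sows in earlier results of these data, and values without both are given beside the results that rest on them. The pair was thus chosen from the same data, and without both, low 1 is the only low prolific sow left.

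The binding proteins IGFBP4 and IGFBP6 were lower in each of the 3 high prolific sows than in any low prolific sow, and IGFBP2 was several-fold higher in low 2 and low 3 than in the other 4 sows. IGF1 and IGFBP5 differed little between the group means. None of the 8 genes passed limma's test with adjustment over the whole table, nor did any other, so that 0 of 14262 (0%) had an adjusted p under 0.05. At an unadjusted p under 0.05 limma gave 1129 genes (7.92% of all), among them 2 of the 8 members, IGFBP4 and IGFBP6. Both lay lower in high prolific sows, as did 583 genes in all (4.09%), and 0 of the 8 members lay higher, against 3.83% of all genes. The groups did not overlap in 2 of the 8 members against 13.5% of all genes, and these were 2 with the high prolific group below (6.32% of all genes) and 0 with it above (7.18%). Of the 8 log2 fold changes (high minus low prolific, on the log2(value + 1) scale) 3 lay above 0 and 5 below, with a median of -0.20 beside -0.0024 over all genes.

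Those counts rested on single sows. At an unadjusted p under 0.05, limma gave 1 member without high 2 or without high 3 and 0 without low 2, without low 3 or without both. Without low 1 it gave 3 (INSR, IGFBP2 and IGFBP4), and the groups then did not overlap in 4 members. Shares over all genes moved too. They were 3.27% without high 2, 5.74% without high 3, 4.43% without low 2, 9.67% without low 3, 4.42% without both and 13.1% without low 1, where 31.3% of all genes did not overlap.

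**Figure D1:**
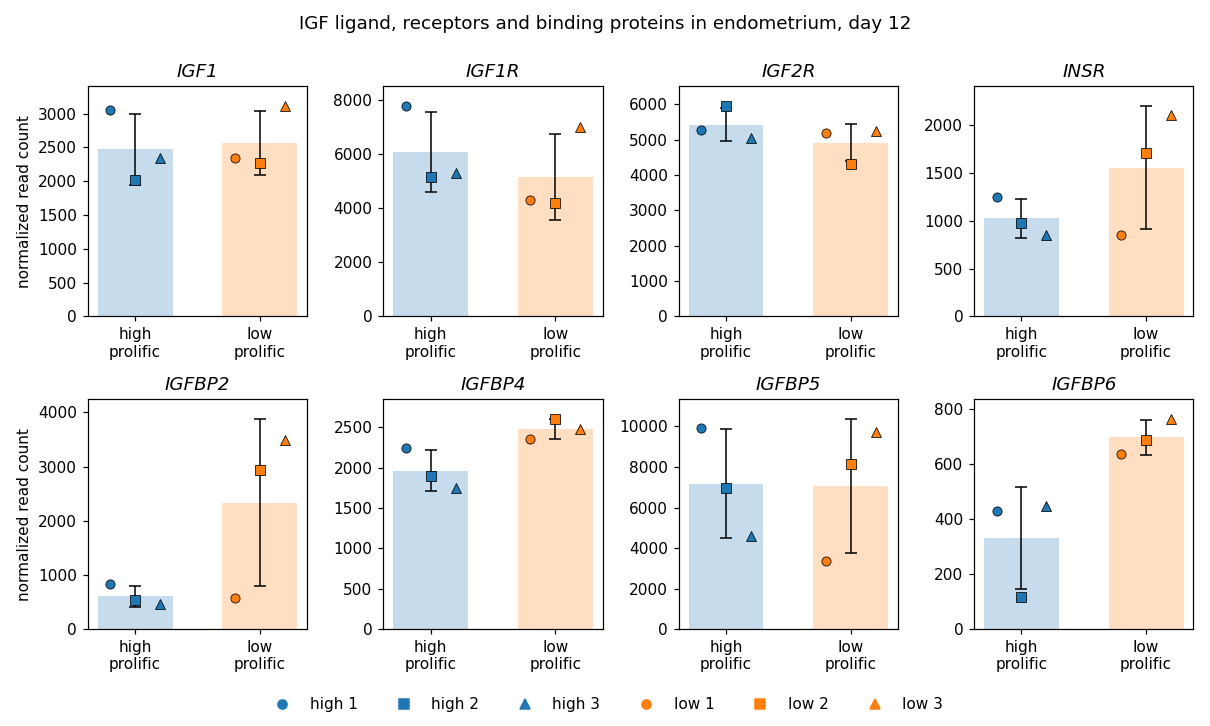
Normalized read counts (linear axes from 0) of the 8 measured genes for each sow by group (high prolific blue, low prolific orange). Bars give the mean and whiskers the SD of 3 sows, symbols the single sows. IGFBP4 and IGFBP6 show no overlap between the groups, and IGFBP2 reaches 2934 and 3498 in low 2 and low 3 against at most 827 elsewhere.

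IGF1, the measured ligand, was at 3053, 2015 and 2336 in high 1 to high 3 and at 2335, 2262 and 3114 in low 1 to low 3. The highest values came from 1 sow of each group, high 1 and low 3, and the groups overlapped over most of their range. Means were 2468 ± 531 against 2571 ± 473 (SD, n = 3, high before low prolific here and throughout). On the log2 scale the difference was -0.06 ± 0.20 (SE), with a 95% interval from -0.54 to 0.41, and limma's adjusted p was 0.943. Its sign turned without high 2 (0.071), without low 3 (0.081) and with parity as a covariate (0.056).

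IGF1R, the receptor through which IGF1 acts, was at 7790, 5169 and 5300 in high 1 to high 3 and at 4292, 4185 and 6992 in low 1 to low 3. The same 2 sows, high 1 and low 3, were highest, and the other 2 high prolific sows lay above the other 2 low prolific ones. Means were 6086 ± 1477 against 5156 ± 1591 (SD, n = 3), with a log2 fold change of 0.25 ± 0.26 (SE, 95% interval -0.37 to 0.88, limma adjusted p = 0.796). It ran from 0.064 without high 1 to 0.50 without low 3, and was 0.13 without low 2 and 0.14 without low 1.

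IGF2R, which clears IGF2, varied least of the 8 genes, by 1.38-fold between its highest and lowest sow. It was at 5272, 5958 and 5045 in high 1 to high 3 and at 5191, 4313 and 5252 in low 1 to low 3, with high 2 highest and low 2 lowest. Between the groups its log2 fold change was 0.14 ± 0.13 (SE, 95% interval -0.16 to 0.45, limma adjusted p = 0.765). It was 0.052 without low 2 and 0.074 without high 2.

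INSR, the insulin receptor, was at 1251, 974 and 848 in high 1 to high 3 and at 846, 1710 and 2106 in low 1 to low 3. Low 2 and low 3 stood above the other 4 sows, while low 1 was the lowest of all. This gave a log2 fold change of -0.52 ± 0.35 (SE, 95% interval -1.37 to 0.33, limma adjusted p = 0.708). Leaving out low 1 gave -0.91 (limma unadjusted p = 0.00505, adjusted p = 0.207) and leaving out low 3 gave -0.25. It turned to 0.26 without both low 2 and low 3.

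IGFBP2, which binds both IGFs, was at 827, 535 and 466 in high 1 to high 3 and at 581, 2934 and 3498 in low 1 to low 3. Low 1 was level with the high prolific sows, and the lowest and highest sow differed by 7.51-fold, the widest span of the 8 genes. Means were 609 ± 192 against 2338 ± 1547 (SD, n = 3). The log2 fold change was -1.62 ± 0.69 (SE, 95% interval -3.27 to 0.039), and limma's unadjusted p was 0.0542 and its adjusted p 0.633. Without low 1 it was -2.44 ± 0.27 (SE, limma unadjusted p = 0.000147, adjusted p = 0.105). Without both low 2 and low 3 it was 0.023, so the gap between the group means rested on these 2 sows.

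Low 2 and low 3 were also the 2 highest sows for INSR, IGFBP4 and IGFBP6, so for 4 of the 8 members in all. The share of all genes with this order was not counted, so 4 of 8 cannot be set against it. For IGFBP4 and IGFBP6 all low prolific sows lay above the high prolific ones, which makes this order more likely. Some markers of cell types were also higher in both low 2 and low 3 than in the other 4 sows, again without a share over all genes beside them. They were 5 of 9 measured markers of stroma, 4 of 7 of smooth muscle and 3 of 6 of endothelium. This held for 2 of 8 markers of epithelium, 2 of 5 of neutrophils and 1 of 7 of macrophages and dendritic cells. It held for none of 7 markers of lymphocytes, 2 of red blood cells and 3 of trophectoderm, the outer layer of the conceptus. Summed normalized read counts of the stromal markers spanned 389200 to 544658 across high and 464550 to 624670 across low prolific sows. For the endothelial markers these spans were 9732 to 14543 and 12181 to 22124. Neutrophil sums spanned 349 to 9205 and 11710 to 23335, but none of the 5 markers separated the groups alone, 2 had a log2 fold change above 0, and the list score overlapped (0.56 in high 1, -0.24 in low 1, exact two-sided permutation p = 0.3). Trophectoderm sums spanned 96.6 to 119 across high and 132 to 175 across low prolific sows. Their list score did not overlap either, at -0.39 to -0.070 and 0.033 to 0.30 (exact two-sided permutation p = 0.1, the smallest this design allows). Only 3 of these 8 markers were measured (ELF5, TFAP2C and GATA3), with a mean as low as 27.5, and 1 of them separated the groups alone. CYP19A1, CYP17A1, IFNG, CDX2 and PAG2 were not matched. The log2 fold change was above 0 for all 7 lymphocyte markers. It was below 0 for all 6 of endothelium, 2 of red blood cells and 3 of trophectoderm, and mixed in the other lists. No measured marker of these lists was at 0 in a sow. The part of these cell types in the IGF results was not tested.

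IGFBP4, which mostly restrains IGF until the protease PAPPA cleaves it, was at 2239, 1902 and 1746 in high 1 to high 3 and at 2350, 2607 and 2481 in low 1 to low 3. All 3 high prolific sows lay below all 3 low prolific sows, with a narrow gap between high 1 and low 1. Means were 1962 ± 252 against 2479 ± 129 (SD, n = 3), 1.27-fold higher in low prolific sows. The log2 fold change was -0.34 ± 0.12 (SE, 95% interval -0.64 to -0.052, limma unadjusted p = 0.0276, adjusted p = 0.619). It lay between -0.44 and -0.26 over all 17 alternatives, and was -0.27 without both low 2 and low 3. Limma's unadjusted p no longer lay under 0.05 without high 2 (0.0824), high 3 (0.0929) or low 2 (0.0774). The same held without low 3, and with the replicate numbers as a block (0.0783).

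IGFBP6, which prefers IGF2 over IGF1, was at 430, 119 and 449 in high 1 to high 3 and at 638, 688 and 766 in low 1 to low 3. The 3 low prolific sows lay close together and above every high prolific sow, and high 2 was far below the rest. Means were 333 ± 186 against 697 ± 64.3 (SD, n = 3), 2.44-fold higher in low prolific sows on the log scale. The log2 fold change was -1.29 ± 0.51 (SE, 95% interval -2.52 to -0.054, limma unadjusted p = 0.0431, adjusted p = 0.629). Without high 2 it was -0.66 with limma's unadjusted p = 0.00505, and without both low 2 and low 3 it was -1.16. A parity term in the model gave -1.13, and limma's unadjusted p of 0.0719 no longer lay under 0.05. High 2 also had the lowest smooth muscle score, the mean of centred log2 values over 7 markers. That score was 0.055, -0.79 and -0.20 in high 1 to high 3 and 0.25, 0.53 and 0.16 in low 1 to low 3 (exact two-sided permutation p = 0.1, the smallest this design allows). Summed counts of the same markers went another way, at 25513, 30166 and 22226 against 30817, 30640 and 20709, with high 2 the highest of its group and the groups overlapping. The part of smooth muscle in the IGFBP6 values was not tested.

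IGFBP5, a matrix-bound IGFBP whose gene is the next protein-coding gene after IGFBP2 in the RefSeq annotation of Sscrofa11.1, was at 9939, 6969 and 4589 in high 1 to high 3 and at 3358, 8133 and 9718 in low 1 to low 3. Each group spanned most of the range of the other. Its log2 fold change was 0.087 ± 0.46 (SE, 95% interval -1.03 to 1.20, limma adjusted p = 0.968). Leaving out high 1 turned it to -0.18 and leaving out low 1 to -0.38. It was 1.02 without both low 2 and low 3.

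**Figure D2:**
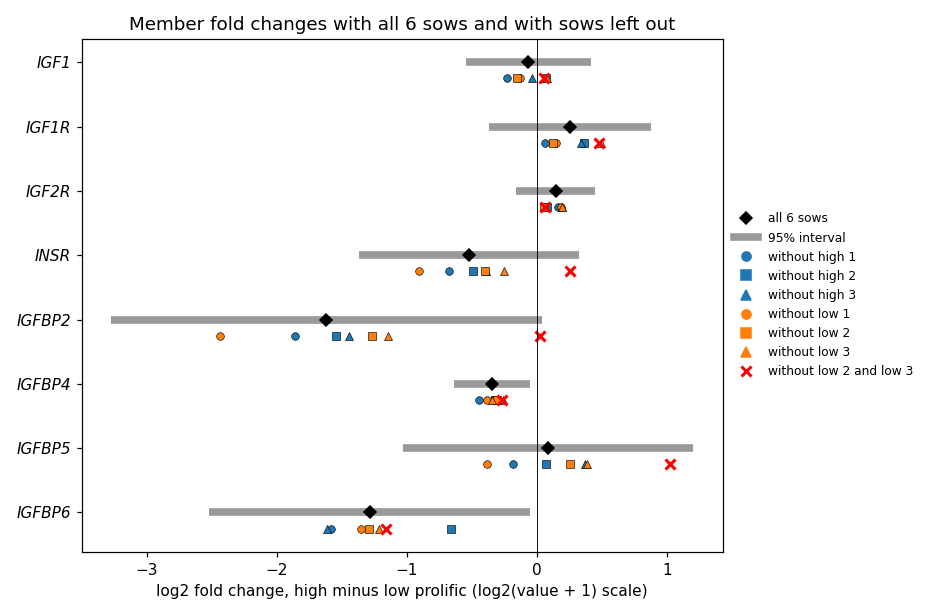
Log2 fold changes (high minus low prolific) of the 8 genes with all 6 sows (diamonds) and their 95% intervals (grey), and below each the values with 1 sow or with both low 2 and low 3 left out. IGFBP2 moves from -1.62 to 0.023 and INSR from -0.52 to 0.26 without low 2 and low 3, while IGFBP4 stays between -0.44 and -0.26.

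Ratios between members within a sow are the same whatever single factor scales a library. Of the 28 pairs among the 8 genes, 11 had ratios that did not overlap between the groups, against 13.8% of all pairs of genes in the table. The 28 pairs share 8 genes and are not independent, and the ratios named here were chosen after their values were seen. IGF1R over INSR was 6.23, 5.31 and 6.25 in high 1 to high 3 and 5.07, 2.45 and 3.32 in low 1 to low 3. All 3 high prolific sows lay above the low prolific ones, although neither gene separated the groups alone. IGFBP2 over its neighbour IGFBP5 was 0.0832, 0.0767 and 0.102 in high 1 to high 3 and 0.173, 0.361 and 0.360 in low 1 to low 3. Here low 1, whose IGFBP2 level was like that of the high prolific sows, also lay above them.

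IGF1 over its receptor IGF1R was 0.392, 0.390 and 0.441 in high 1 to high 3 and 0.544, 0.540 and 0.445 in low 1 to low 3, with high 3 and low 3 nearly level. INSR over IGFBP2 was 1.51, 1.82 and 1.82 against 1.46, 0.583 and 0.602, again with low 1 just below the high prolific sows. IGF1 over IGFBP6 was 7.09, 17.0 and 5.20 in high 1 to high 3 and 3.66, 3.29 and 4.07 in low 1 to low 3, with high 2 far above the rest.

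**Figure D3:**
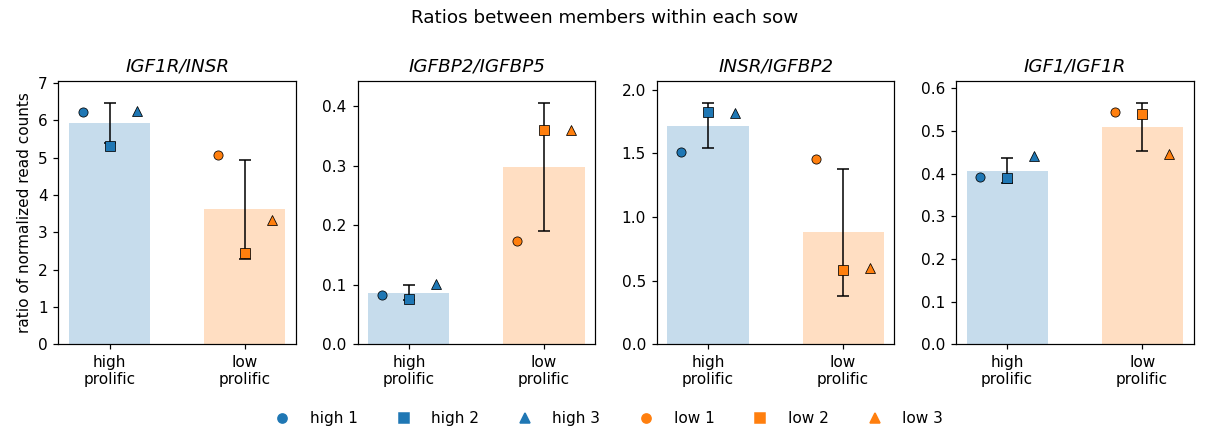
Ratios of normalized read counts within each sow (linear axes from 0) for 4 pairs of members, by group (high prolific blue, low prolific orange). Bars give the mean and whiskers the SD of 3 sows, symbols the single sows. In each panel the groups do not overlap, with IGF1R/INSR between 5.31 and 6.25 in high and between 2.45 and 5.07 in low prolific sows.

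Across the 6 sows, INSR and IGFBP2 had the highest Pearson r of the 28 pairs (r = 0.97, Spearman rho = 0.83 of log2 values). No other pair had r over 0.9. Low 2 and low 3 were the 2 highest sows for both genes. IGF1 and its receptor IGF1R came next by Pearson r, at r = 0.82 and rho = 0.77, with high 1 and low 3 highest in both. IGFBP2 and IGFBP4 had r = 0.80 and rho = 0.89, the highest rho of the 28 pairs. These are descriptions of 6 libraries, which share their scaling.

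Genes with the pattern most like each of the 3 members of smallest p were sought among 11336 genes with a symbol and a mean of at least 50. For IGFBP4 these were TDRD10, E2F2 and ARHGEF28 (each r = 0.99 over 6 sows). For IGFBP6 they were DES, the muscle intermediate filament desmin and 1 of the smooth muscle markers (r = 0.99), DUSP4 (0.99) and RELT (0.98). DES was at 473, 111 and 409 in high 1 to high 3 and at 506, 646 and 660 in low 1 to low 3, so that high 2 was lowest there as well. For IGFBP2 they were TRNAU1AP, MKLN1 and ANGPTL2 (r = 0.997, 0.996 and 0.996). ANGPTL2, a secreted angiopoietin-like protein, was at 1514, 1363 and 1397 against 1411, 1995 and 2059. With 6 sows such values are common, and 420 genes had r over 0.9 with IGFBP2, 179 with IGFBP4 and 112 with IGFBP6.

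IGF1, IGF1R and IGFBP5 were each highest in high 1 and low 3, the 2 sows of parity 5. Both of these sows lay above the other 4 in 3 of the 8 members and in 14 of 80 other pathway genes, against 11.1% of all genes. Parity was looked at after these values had been seen, so slopes on it, fitted beside the group, are given as a description with no test. They were -0.24 ± 0.05 log2 units per litter (SE) for IGF1R, -0.18 ± 0.04 for IGF1 and -0.33 ± 0.15 for IGFBP5. The other members had slopes below 0 as well, at -0.39 ± 0.26 for IGFBP2, -0.24 ± 0.20 for IGFBP6 and -0.23 ± 0.12 for INSR. Those of IGFBP4 and IGF2R were -0.07 ± 0.04 and -0.01 ± 0.06. With parity in the model the group difference of IGF1R was 0.42 ± 0.13 (SE, limma unadjusted p = 0.0179, adjusted p = 0.676). As parity was taken up after the order of sows in IGF1R was seen, this p is not a test of the group difference. Parity 7 occurred in low and parity 8 in high prolific sows only, so the difference also rests on a linear slope. IGFBP6 no longer had an unadjusted p under 0.05 in this model and IGFBP4 still did, so the count of members was again 2.

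Among the other pathway genes with these sows on top was STC1, stanniocalcin, which inhibits PAPPA. It reached 11641 in high 1 and 9814 in low 3, against 350 to 727 elsewhere. ADAM9 (3059 and 3219 in the sows of parity 5, at most 2111 in the others) and MMP2 (32579 and 38047, at most 24523), both metalloproteases, had the same 2 sows on top. Stromal and endothelial markers moved with this order in part. The stromal score was 0.11 in high 1 and 0.36 in low 3 and at most 0.073 in the others, and the endothelial score was 0.11 and 0.64, with 0.17 in low 2. The part of either cell type was not tested.

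**Figure D4:**
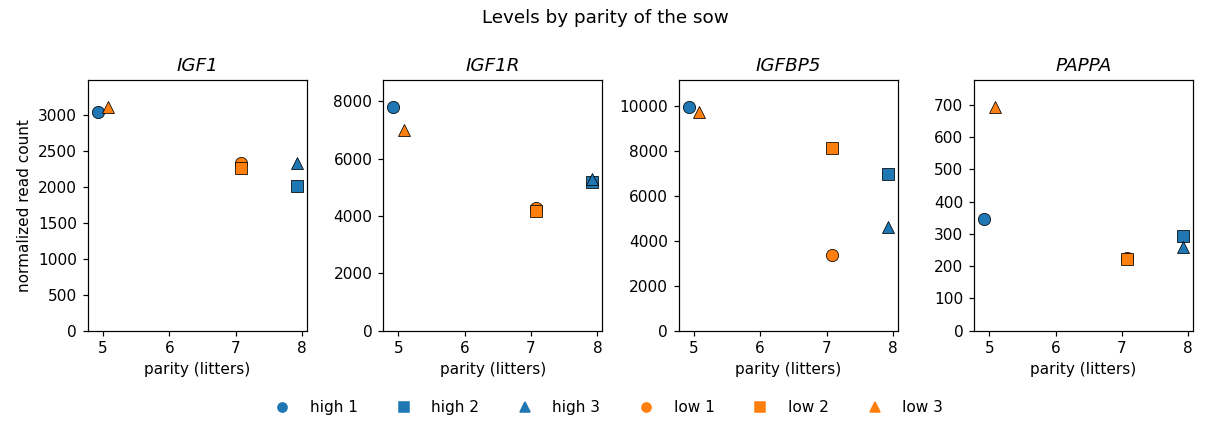
Normalized read counts (linear axes from 0) of IGF1, IGF1R, IGFBP5 and the IGFBP protease PAPPA against the parity of the sow (high prolific blue, low prolific orange). The genes were chosen for this order of sows after their values were seen, and the members not shown do not have it. High 1 and low 3, at parity 5, are the highest sows in each panel, with IGF1R at 7790 and 6992 against at most 5300 in the others.

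The other genes of the pathway were 96 in number by role, of which 80 were measured. The log2 fold change was above 0 in 31 and below 0 in 49, against 7079 and 7183 of all genes. Its median was -0.06 over the 80 genes and -0.0024 over all genes. Limma gave 7 at an unadjusted p under 0.05, a share near the 7.92% of all genes, and 0 at an adjusted p under 0.05. By direction 1 was higher and 6 were lower in high prolific sows, against 3.83% and 4.09% of all genes. The groups did not overlap in 10 of the 80, also near the 13.5% of all genes. In 3 the high prolific group lay above (7.18% of all genes) and in 7 below (6.32%). The count of 7 ran from 2 without high 2 to 9 without high 1 or low 1. Leaving out low 2 gave 3, high 3 gave 4, and both low 2 and low 3 together gave 2. The shares over all genes in these settings, 3.27% without high 2, 8.86% without high 1, 13.1% without low 1, 4.43% without low 2, 5.74% without high 3 and 4.42% without both, moved in the same directions.

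Among 11 measured proteases of binding proteins and their inhibitors, 3 had a log2 fold change above 0 and 8 below. HTRA3, a secreted serine protease of endometrium and placenta, was at 137, 51.6 and 294 in high 1 to high 3 and at 461, 442 and 681 in low 1 to low 3. The groups did not overlap, and the log2 fold change was -2.01 ± 0.60 (SE, limma unadjusted p = 0.0146, adjusted p = 0.619). Its relative HTRA1, which cleaves IGFBP5, had the higher mean in high prolific sows, at 16166 ± 4445 against 11618 ± 1237 (SD, n = 3, log2 fold change 0.45, limma adjusted p = 0.654). The groups overlapped for HTRA1, with high 1 at 12033 below low 1 at 12431 and low 3 at 12229. PRSS23, a secreted serine protease, was at 3728 ± 940 against 5545 ± 826 (log2 fold change -0.59 ± 0.21, limma unadjusted p = 0.0305).

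PAPPA, the main protease of IGFBP4, was at 347, 295 and 259 in high 1 to high 3 and at 225, 222 and 693 in low 1 to low 3, with low 3 far above the rest (log2 fold change -0.13 ± 0.46, limma adjusted p = 0.951). STC2, another stanniocalcin and PAPPA inhibitor, was at 74.0, 858 and 555 in high 1 to high 3 and at 60.5, 86.8 and 97.7 in low 1 to low 3. High 2 and high 3, the sows of parity 8, were the high ones, and as parity 8 occurred in high prolific sows only, the groups cannot be compared there. The log2 fold change was 2.02 ± 0.88 (SE, limma unadjusted p = 0.0597), and 1.57 with a linear term for parity (limma unadjusted p = 0.0624). It was 1.33 without high 2 and 3.09 without high 1.

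In 3 other extracellular partners the groups overlapped. IGFBP7, a related low-affinity binder, was at 8641 ± 1489 against 10484 ± 3421 (SD, n = 3), IGFALS, the subunit that stabilises circulating IGF complexes, at 117 ± 10.1 against 129 ± 19.9, and M6PR, the smaller mannose 6-phosphate receptor, at 2813 ± 71.9 against 2732 ± 367. None of these 3 had an unadjusted p under 0.05 with limma. Among 6 genes of IGF2 transcription, processing and mRNA binding 0 did. IGF2BP2, which binds IGF2 mRNA, was at 1858 ± 285 against 2221 ± 476, IGF2BP3, its relative, at 36.0 ± 8.66 against 39.8 ± 12.2, and PCSK6, a proprotein convertase, at 679 ± 27.6 against 791 ± 153.

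In the growth hormone axis, which drives IGF1 expression in liver, 4 of 5 genes were measured. STAT5A, a transcription factor downstream of the growth hormone and prolactin receptors, was at 683, 626 and 1007 in high 1 to high 3 and at 1137, 1514 and 1055 in low 1 to low 3. The groups did not overlap (log2 fold change -0.69 ± 0.23, limma unadjusted p = 0.0205, adjusted p = 0.619). STAT5B lay lower in each high prolific sow as well, at 1453 ± 83.3 against 1677 ± 72.8 (SD, n = 3, limma unadjusted p = 0.0671), while the kinase JAK2 was at 1495 ± 197 against 1313 ± 140.

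Of 19 measured adaptors and brakes of the receptors, 1 had an unadjusted p under 0.05 with limma, against 7.92% of all genes. This was DOK1, an adaptor that damps RAS signalling. It was at 341, 228 and 209 in high 1 to high 3 and at 350, 611 and 407 in low 1 to low 3, a log2 fold change of -0.81 ± 0.28 (limma unadjusted p = 0.0255). GAB1, a docking protein of receptor tyrosine kinases, was at 1229, 573 and 569 against 769, 2832 and 2857. As for IGFBP2, low 2 and low 3 were the high sows, and its log2 fold change of -1.32 became -0.06 without both. SOCS3, a cytokine-induced brake, was at 291 ± 57.4 against 414 ± 159 (SD, n = 3). IRS1, the classical docking protein of IGF1R and INSR, was at 1038 ± 198 against 898 ± 70.5 and IRS2 at 384 ± 88 against 411 ± 223.

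In the PI3K, AKT and MTOR arm, 27 genes were measured. AKT2, a kinase of insulin action, had the smallest p of the 80 genes. It was at 2743, 3317 and 3085 in high 1 to high 3 and at 2298, 2009 and 2169 in low 1 to low 3, and all high prolific sows lay above all low prolific ones. This gave a log2 fold change of 0.50 ± 0.11 (SE, limma unadjusted p = 0.00385, adjusted p = 0.619), which lay between 0.40 and 0.57 over the 17 alternatives. EIF4EBP1, the translation repressor that MTOR inactivates, was at 371, 229 and 296 against 374, 743 and 625 (log2 fold change -0.93 ± 0.30, limma unadjusted p = 0.0203), with high 1 and low 1 nearly level. It was -0.35 without both low 2 and low 3. RHEB, the activator of MTOR, was at 2794 ± 621 against 3699 ± 1175.

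In the RAS and MAP kinase arm 2 of 10 measured genes had a log2 fold change above 0 and 8 below. MAPK3, a kinase at the end of this arm, was higher in each high prolific sow than in any low prolific one, at 5990 ± 426 against 5314 ± 153 (SD, n = 3, limma unadjusted p = 0.141), and MAP2K1 was at 2956 ± 165 against 3357 ± 447.

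**Figure D5:**
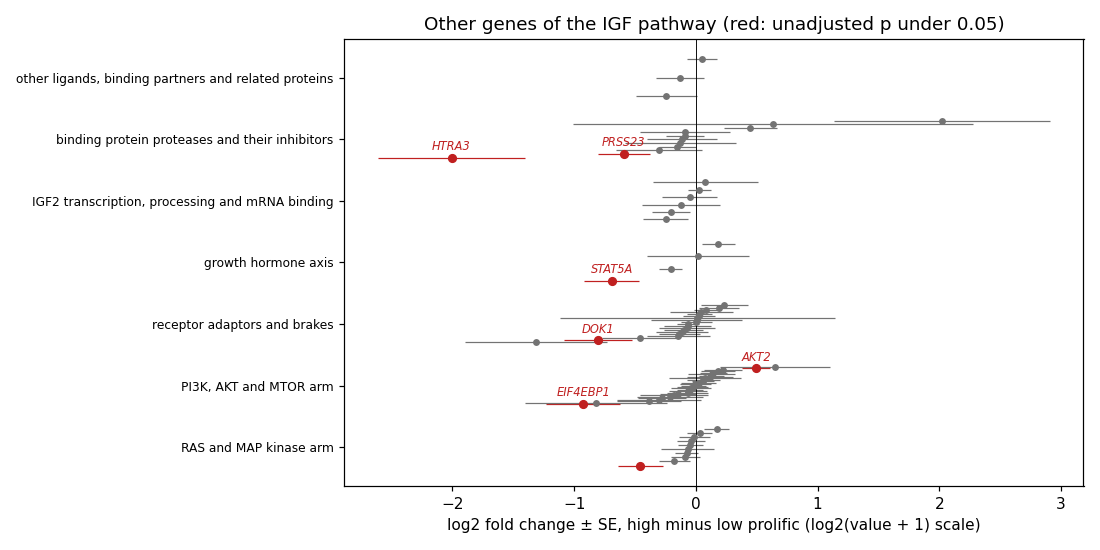
Log2 fold changes (high minus low prolific) with SE of the 80 other measured genes of the IGF pathway, grouped by role, with genes at an unadjusted p under 0.05 in red. AKT2 lies to the right of 0 at 0.50 and HTRA3 farthest to the left at -2.01, around a median of -0.06 over the 80 genes.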

How the data were processed

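The deposited table gives 1 value per gene and sow, the authors' signal of normalized read counts, which holds fractions and sums to near-equal totals. The submitters' processing notes name Subread 1.6, featureCounts and edgeR. How each was used, the genome build, annotation, strand setting and normalization are not given in the sources used here. No coordinates are therefore printed. The share of low values (under 20) that came out whole to within 0.1 at the best step ran from 40.6% (high 2) to 100% (high 3), so reads could not be recovered in every library and no count model was applied. Symbols were found for 11977 identifiers. Limma 3.58.1 (R 4.3.3) compared the groups on log2(value + 1), two-sided, with a variance trend, robust moderation and Benjamini-Hochberg adjustment over all genes at 0.05. This scale understates differences of low genes. The fit was run on simulated data with genes drawn independently, as a check on the direction and size of its estimates and not on its calls. Marker scores were compared by an exact permutation test (scipy 1.17.1). Each library is 1 sow by its title. The members, lists and tests were chosen with earlier results of these data known. Pathway genes named by rule are the 3 of smallest p in each list, and others were named after their values were seen. A result on 1 pathway gene is not reported here. Reads of related or overlapping genes may be shared in the counting.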

Additional observations from a re-analysis of the deposited data

How the results depend on the processing

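The comparison was repeated under 17 alternatives: other pseudocounts (0.5 and 10), filters, scalings and variance models, library weights, parity, the replicate block, and sows left out. The filter of 10 or more in at least 3 sows removed 0 genes. Of 491 values for single genes, 476 kept their direction and 15 turned sign. Genes past the adjusted threshold numbered 0, and between 0 and 4 with 1 sow left out (4 without low 1, 1 without low 2). Members at an unadjusted p under 0.05 numbered 2, and between 0 and 3 with 1 sow left out. Members without overlap numbered 2, and between 2 and 4, while the share over all genes went from 13.5% to between 17.3% and 31.3%. Pathway genes at an unadjusted p under 0.05 numbered 7, and between 2 and 9. Without both low 2 and low 3 these became 0, 5 (50.9% of all genes) and 2, and the members' median log2 fold change went from -0.20 to 0.059.

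Signs turned without both low 2 and low 3 for IGF1 (0.058), INSR (0.26), IGFBP2 (0.023), IGFBP7 (0.15), M6PR (-0.11) and IGF2BP3 (0.028). Without low 3 they turned for IGF1 (0.081), IGFBP7 (0.0055) and M6PR (-0.062), without low 2 for IGF2BP3 (0.11), without high 2 for IGF1 (0.071), without high 1 and without low 1 for IGFBP5 (-0.18 and -0.38), with parity for IGF1 (0.056) and with library weights for M6PR (-0.0030). With 1 sow left out the values lay between -0.23 and 0.081 for IGF1, -0.38 and 0.39 for IGFBP5, -0.44 and 0.0055 for IGFBP7, -0.062 and 0.13 for M6PR and -0.31 and 0.11 for IGF2BP3. The cause was not tested.

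With the replicate block, limma gave 1 member (IGFBP6) and 3 pathway genes at an unadjusted p under 0.05, against 4.31% of all genes. The labels do not say that the numbers pair the sows. Deviations from the group means correlated at -0.38, -0.16 and -0.36 across genes for the numbers 1, 2 and 3. The highest value was 0.38, for high 1 with low 3. Such deviations cancel within a group, so these values cannot decide whether the sows were paired. Unknown depth limits what can be said of low values.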
